A study of Homo sapiens with 2 samples.

Results

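The genes described here are the aminoacyl-tRNA synthetases and the enzymes of amino acid synthesis that the authors' deposited table lists as changed after exposure of SNU-449 cells to ezetimibe. SNU-449 is an established line from a human hepatocellular carcinoma. Ezetimibe lowers cholesterol by blocking NPC1L1, a sterol transporter. RNA of 1 control culture and of 1 culture kept with ezetimibe for 24 h was sequenced, both in the same serum-containing medium and with the drug as the labelled difference between them; its dose and its vehicle are unknown from the labels. The table holds genes called changed, a direction for each, and no level, fold change or p per gene, so nothing below has a replicate check, and up or down is the authors' call on 2 libraries. Sequencing depth is unknown from this table.

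The members were selected by the authors' calls. A gene was taken when it was listed as changed under Aminoacyl-tRNA biosynthesis, under Alanine, aspartate and glutamate metabolism, under Glycine, serine and threonine metabolism, under Cysteine and methionine metabolism or under Biosynthesis of amino acids. It was dropped when it was also listed under any of 5 pathways of sugar and central carbon metabolism. This left 50 of the 2238 changed genes in the table, which has 327 pathways. Of the 50, 21 were listed as up (42.0%) and 29 as down. Over all changed genes 32.5% were up and 67.5% down, and the changed genes were 25.2% of the 8877 background genes of all pathways. Since the calls themselves chose the members, these shares are descriptions with no test. The fold or p at which a gene entered the table is not in it, so no gene just outside the call can be named. The comparison is named ezetimibe first and control second, and on that naming alone up is taken to mean higher with the drug.

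Aminoacyl-tRNA synthetases join each amino acid to its tRNA and so supply the ribosome. Most amino acids have one enzyme for the cytosol and a separate one, also encoded in the nucleus, for mitochondria. Serine, glycine, cysteine, asparagine, aspartate, proline, glutamate and arginine can be made by human cells. In many cell types, liver-derived lines among them, the transcription factor ATF4 is known to raise many synthetase and amino acid synthesis genes through a C/EBP-ATF response element when amino acids run short or the endoplasmic reticulum is under stress. In liver the same pathways also feed the urea cycle, the methionine cycle and the breakdown of choline.

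The cytosolic synthetases were the group with the most members listed as up. Of 21 genes in the list of cytosolic synthetases, 9 were in the table (42.9%, against 25.2% of all background genes). Of these 9, 8 were up (88.9%, against 32.5% of all changed genes). They charge alanine (AARS1), cysteine (CARS1), glycine (GARS1), serine (SARS1), valine (VARS1), tryptophan (WARS1) and tyrosine (YARS1), and FARSA is the catalytic alpha subunit of the phenylalanine enzyme. The table gives these genes under older symbols without the final digit, such as AARS for AARS1 (ENSG00000090861; GRCh38 chromosome 16, 70252295 to 70289543, on the minus strand in GENCODE release 29). LARS1, the leucine synthetase (ENSG00000133706; chromosome 5, 146113038 to 146182660, minus strand), was the 1 cytosolic enzyme listed as down. The beta subunit of the phenylalanine enzyme, FARSB, was not in the table, so the 2 subunits of that enzyme do not have the same entry. GARS1 serves both compartments, and without it 7 of 8 would read 87.5%.

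Of the 17 mitochondrial synthetases 3 were in the table (17.6%, beside 25.2% of background genes). All 3 were down, as were 67.5% of all changed genes, so that nothing about the set can be read from so few. Among them were IARS2 for isoleucine and NARS2 for asparagine. SEPSECS, which makes the charged selenocysteine tRNA, was the 1 of 6 genes of charged tRNA conversion in the table, and it was down too. Cytosolic and mitochondrial enzymes were paired by gene name, which gave 15 amino acids, and no amino acid of these had both in the table. Glutamate and proline, which share 1 cytosolic enzyme, were left out of this pairing, and none of their enzymes was listed. As 42.9% of the cytosolic list, 17.6% of the mitochondrial list and 25.2% of all background genes were listed, nothing is read from the count of 0. For 7 of the 15 amino acids only the cytosolic enzyme was listed, as up. For leucine only the cytosolic enzyme was listed, as down. For 3 only the mitochondrial enzyme was listed, as down, and for 4 neither was. Absence from the table can mean no called change, no expression or no place in the background, and these cannot be told apart.

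**Figure D1:**
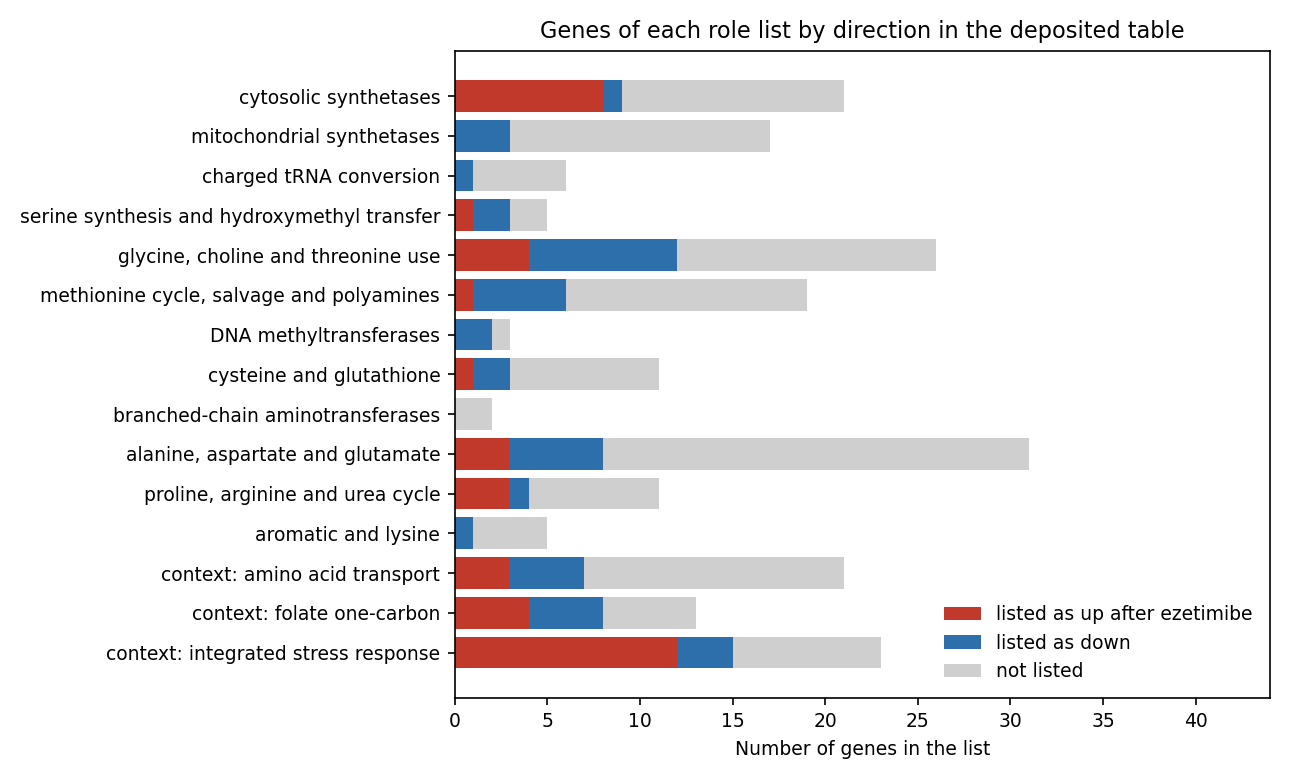
Number of genes in each role list (horizontal axis, genes) that the table lists as up (red), lists as down (blue) or does not list (grey), 1 bar per list. Of the cytosolic synthetases 8 are up and 1 is down, and the 3 listed mitochondrial synthetases are all down; lists marked as context hold neighbours of the pathway.

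The base composition of the transcripts moved with these directions. The 8 cytosolic synthetases listed as up had a GC content of 48.6 to 62.6% in their longest transcript. LARS1, the 3 mitochondrial synthetases and SEPSECS lay between 37.5 and 43.9%, so the up and down genes of tRNA charging did not overlap in GC content. Over all changed genes the median was 55.2% in the up genes and 43.6% in the down genes. The entries of the cytosolic and mitochondrial sets at like GC content were as follows. Of the 10 cytosolic synthetases at or above 48.6%, 8 were up and 2 (MARS1 and QARS1) were not listed, whereas all 11 mitochondrial synthetases at or above that value were not listed. Below it, 1 of 11 cytosolic and 3 of 6 mitochondrial enzymes were listed, all as down. This threshold is the lowest value among the cytosolic genes listed as up and was set after the directions were seen. The part of GC content in the directions was not tested.

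**Figure D2:**
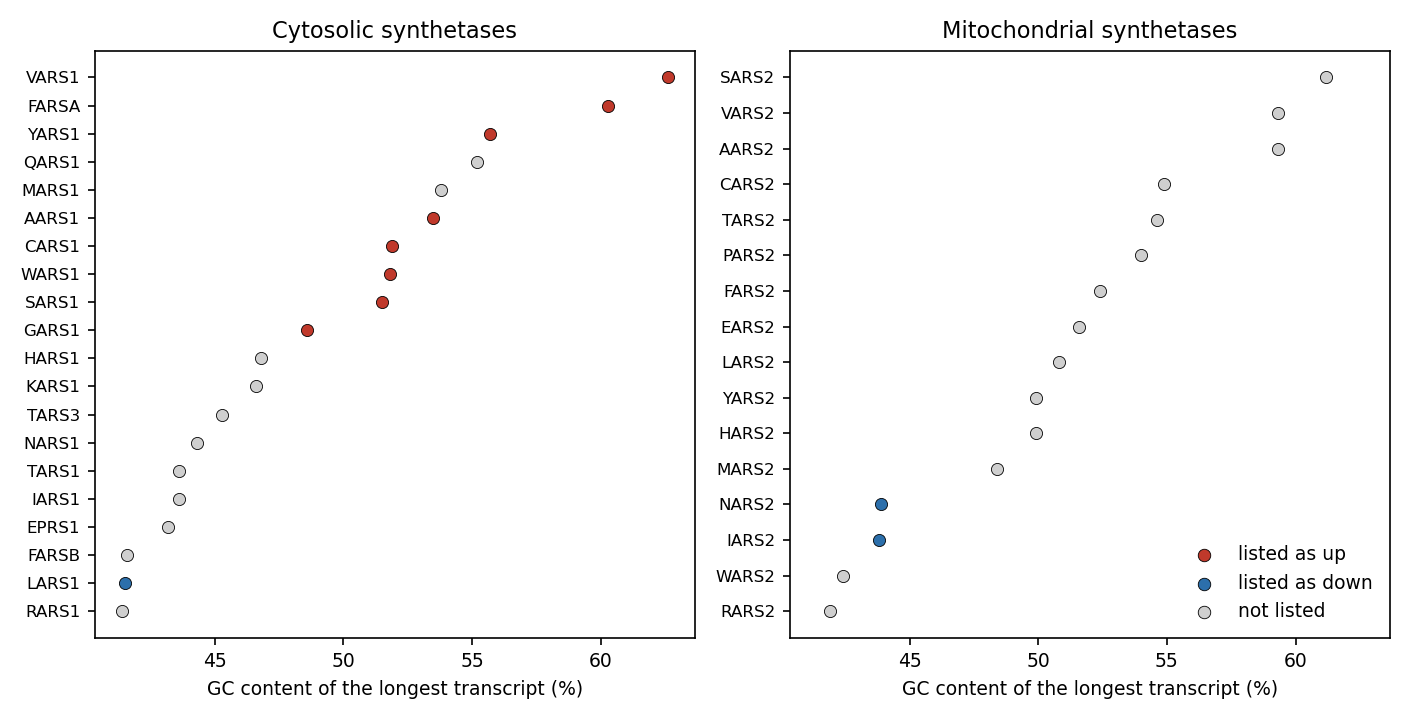
GC content of the longest transcript (horizontal axis, percent) of 20 cytosolic (left) and 16 mitochondrial (right) synthetases, 1 point per gene, coloured by its entry in the table. The cytosolic genes listed as up start at 48.6%, and the 11 mitochondrial genes at or above that value are grey, not listed.

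Promoter sequences were searched for the element named above. RefSeq windows on GRCh38.p14, each from 250 bases before a gene's start to 50 bases after it, were available for 40 of the 50 members (16 up, 24 down; 57 windows, since some genes have several starts). The core of the C/EBP-ATF element, spelled TGATGNAA and searched on both strands, was found in 6 of the 16 genes listed as up (37.5%) and in 0 of the 24 listed as down. It was in 4.46% of all 27305 genes of the promoter table, in 4.52% of 575 genes listed as up and in 2.70% of 1224 listed as down. At shares this low, nothing is read from the 0 of 24. Windows per gene were alike, at 1.38 for members up and 1.46 for members down. The 6 genes were AARS1, CARS1, GARS1, ASNS, GOT1 and AOC2. The stricter spelling TGATGCAA, a subset of the same matches, was found in AARS1, CARS1 and GOT1 (3 genes; 1.08% of all genes). A match is only a match of letters, and no binding was measured in these samples. Among the 10 members without a window were AOC3, LARS1, PSPH, PYCR1, SEPSECS, SHMT2, VARS1 and YARS1.

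The windows below show where the element lies in the 3 synthetases and in ASNS and GOT1, the 2 matching genes that make asparagine and aspartate. Letters run 5′ to 3′ on the strand of the gene, and capitals mark the match to TGATGNAA or to its reverse complement. The positions are chr16:70289457-70289756, minus strand for AARS1, chr11:3057374-3057673, minus strand for CARS1, chr7:30594628-30594927, plus strand for GARS1, chr7:97872359-97872658, minus strand for ASNS and chr10:99430575-99430874, minus strand for GOT1.
AARS1: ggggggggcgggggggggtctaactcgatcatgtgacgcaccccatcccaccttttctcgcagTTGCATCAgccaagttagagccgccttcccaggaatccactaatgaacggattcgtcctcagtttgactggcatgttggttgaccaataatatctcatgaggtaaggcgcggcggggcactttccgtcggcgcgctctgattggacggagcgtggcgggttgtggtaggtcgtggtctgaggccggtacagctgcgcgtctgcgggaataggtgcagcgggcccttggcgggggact
CARS1: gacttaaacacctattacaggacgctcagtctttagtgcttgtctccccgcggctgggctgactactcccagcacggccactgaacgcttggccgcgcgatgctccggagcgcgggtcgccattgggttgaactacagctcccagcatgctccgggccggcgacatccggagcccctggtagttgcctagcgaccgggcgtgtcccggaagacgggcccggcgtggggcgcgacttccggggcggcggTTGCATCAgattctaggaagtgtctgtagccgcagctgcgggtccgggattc
GARS1: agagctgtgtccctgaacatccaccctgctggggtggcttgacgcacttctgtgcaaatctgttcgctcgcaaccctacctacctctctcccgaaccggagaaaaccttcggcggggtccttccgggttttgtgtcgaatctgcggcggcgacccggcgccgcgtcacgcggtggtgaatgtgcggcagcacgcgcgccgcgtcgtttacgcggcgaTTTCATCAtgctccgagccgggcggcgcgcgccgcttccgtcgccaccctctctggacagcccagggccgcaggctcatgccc
ASNS: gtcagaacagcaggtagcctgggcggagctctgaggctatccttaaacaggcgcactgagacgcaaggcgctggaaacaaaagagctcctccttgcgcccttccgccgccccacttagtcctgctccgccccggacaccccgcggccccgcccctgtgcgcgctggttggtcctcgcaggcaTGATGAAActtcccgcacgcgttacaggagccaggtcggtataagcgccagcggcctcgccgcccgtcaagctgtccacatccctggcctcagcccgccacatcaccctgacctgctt
GOT1: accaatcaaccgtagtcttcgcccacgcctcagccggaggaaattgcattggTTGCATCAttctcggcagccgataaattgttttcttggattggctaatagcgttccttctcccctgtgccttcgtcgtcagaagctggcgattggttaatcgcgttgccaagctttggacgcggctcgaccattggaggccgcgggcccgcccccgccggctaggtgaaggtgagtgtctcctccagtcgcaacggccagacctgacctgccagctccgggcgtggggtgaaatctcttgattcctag
In AARS1, CARS1 and GOT1 the same 8 letters, TTGCATCA, stand on the gene's strand, starting 187, 2 and 198 bases before the RefSeq start. GARS1 has TTTCATCA from 33 bases before the start, in the second of its 2 windows. ASNS carries the other orientation, TGATGAAA, from 68 bases before the start; this stretch is known as part of the amino acid response unit of that gene. AOC2 has TGATGGAA from 224 bases before its start. A pair of other motifs was searched in the same way. The cyclic AMP response element TGACGTCA was in the window of 1 gene listed as down (KYAT1) and in 0 of the 16 up, against 2.25% of all genes. The E-box CACGTG was in 2 of the 16 up (ASS1 and SRM) and 2 of the 24 down (ADI1 and CPS1), against 8.77% of all genes.

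Apart from tRNA charging, 37 members were enzymes of amino acid metabolism, 13 up (35.1%) and 24 down. This share lay near the 32.5% of all changed genes.

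The serine hydroxymethyltransferases of the 2 compartments had opposite directions. Of 5 genes of serine synthesis and hydroxymethyl transfer, 3 were listed (60%, beside 25.2% of background genes), 1 up and 2 down (33.3% up, beside 32.5%). SHMT2, the mitochondrial enzyme that turns serine into glycine and a one-carbon unit (ENSG00000182199; chromosome 12, 57229327 to 57234935, plus strand), was up. SHMT1, its cytosolic counterpart, and PSPH, the last enzyme of serine synthesis, were down. PSPH has a near-identical pseudogene, so its entry is uncertain. PHGDH and PSAT1, the first steps of serine synthesis, were not listed. The folate genes beside them, in a list of 13 that holds no member of the 50, had 8 listed (61.5%, beside 25.2%). Of these 8, 4 were up and 4 down (50% up, beside 32.5%). The mitochondrial enzymes MTHFD2 and MTHFD1L were up and MTHFD2L was down. In the cytosol MTHFD1 and TYMS, the thymidylate synthase of DNA synthesis, were down, and the formyl-folate dehydrogenase ALDH1L1 was up.

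Genes that use glycine, choline and threonine had directions near those of the whole table. Of the 26 genes in the list of glycine, choline and threonine use, 12 were listed (46.2%, beside 25.2% of background genes), 4 up and 8 down. The members among them were 4 up and 7 down (36.4% up, beside 32.5% of all changed genes). Both listed proteins specific to the glycine cleavage system, GLDC and AMT, were down. So were CHDH and DMGDH, which oxidise choline and dimethylglycine in mitochondria. GATM, the first step of creatine synthesis, the serine racemase SRR and the monoamine oxidase MAOA were down too. The 4 genes listed as up were ALAS1, the first and rate-limiting enzyme of haem synthesis, the glyoxylate-detoxifying aminotransferase AGXT, and the amine oxidases AOC2 and AOC3. AOC2 and AOC3 are neighbours on chromosome 17 (42844600 to 42850707 and 42851184 to 42858130) with related sequences, so their 2 entries may share reads and are uncertain.

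Of 19 genes of the methionine cycle, methionine salvage and polyamine synthesis 6 were listed (31.6%, beside 25.2% of background genes), 1 up and 5 down (16.7% up, beside 32.5%). MTR and BHMT, which remake methionine from homocysteine with folate and betaine, were down, and BHMT2 was not listed. MAT2A, which makes the methyl donor S-adenosylmethionine, was down. Of the 3 DNA methyltransferases that use it, 2 were listed (66.7%, beside 25.2% of background genes), DNMT1 and DNMT3B. Both were down, as were 67.5% of all changed genes, and nothing is read from so few. In polyamine synthesis, AMD1, which decarboxylates S-adenosylmethionine, was down and the spermidine synthase SRM was up. ADI1 of the methionine salvage pathway was down. In this list SRM, the 1 gene up, lay at a GC content of 63.7%, and the 5 genes down lay between 37.7 and 45.6%. The medians over all changed genes were 55.2% up and 43.6% down. With 1 gene up, no trend within the list can be read. DNMT1 and DNMT3B, of another list, were down at 55.4 and 53.9%. The part of GC content was not tested.

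In cysteine metabolism, 3 of 11 genes were listed (27.3%, beside 25.2% of background genes), 1 up and 2 down (33.3% up, beside 32.5%). Both shares lay near those of the whole table. CTH, which makes cysteine from cystathionine (ENSG00000116761; chromosome 1, 70411218 to 70439851, plus strand), was up. CDO1, which oxidises cysteine, and the cysteine conjugate lyase KYAT1, listed under its older symbol CCBL1, were down. The preceding enzyme CBS and the glutathione enzymes GCLC, GCLM and GSS were not listed. CTH was up at a GC content of 43.3%, close to the 43.6% median of genes listed as down.

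Alanine, aspartate and glutamate genes had both directions. Of 31 genes of alanine, aspartate and glutamate metabolism, 8 were listed (25.8%, beside 25.2% of background genes), 3 up and 5 down (37.5% up, beside 32.5%). Up were ASNS, which makes asparagine with glutamine as donor (ENSG00000070669; chromosome 7, 97852118 to 97872542, minus strand), the cytosolic aspartate aminotransferase GOT1, and GFPT1, which spends glutamine to start hexosamine synthesis. Among the genes down was GLS2, which releases glutamate from glutamine. Also down were ABAT and ALDH5A1, the 2 consecutive enzymes that degrade the glutamate product GABA, and RIMKLA, which joins glutamate to N-acetylaspartate. GFPT1 had the lowest GC content of the members listed as up (38.3%) and ASNS lay at 47.0%. GLS2 was down at 53.7%, close to the median of genes listed as up.

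Of 11 genes of proline, arginine and the urea cycle, 4 were listed (36.4%, beside 25.2%) and 7 were not. Of the 4, 3 were up, beside 32.5% of all changed genes. PYCR1 makes proline in mitochondria. ASS1 and ASL are the 2 consecutive enzymes that make arginine from citrulline and aspartate. CPS1, the mitochondrial entry enzyme of the urea cycle (ENSG00000021826; chromosome 2, 210477682 to 210679107, plus strand), was down. Neither of the 2 branched-chain aminotransferases was listed, and of 5 genes of aromatic amino acid and lysine use, AASS, which is not among the 50, was down. CPS1 is also a hepatocyte marker: of 11 such markers 4 were listed, all as down, beside 67.5% of all changed genes (CPS1 and the fibrinogen genes FGA, FGB and FGG), and the table shows no level from which expression of the others could be read. The 3 fibroblast markers were all listed as down in this cell line, beside 25.2% of background genes listed and 67.5% of changed genes down. The part of cell state in these entries was not tested. In RNA from a whole culture fewer cells with such transcripts and less RNA per cell cannot be told apart.

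**Figure D3:**
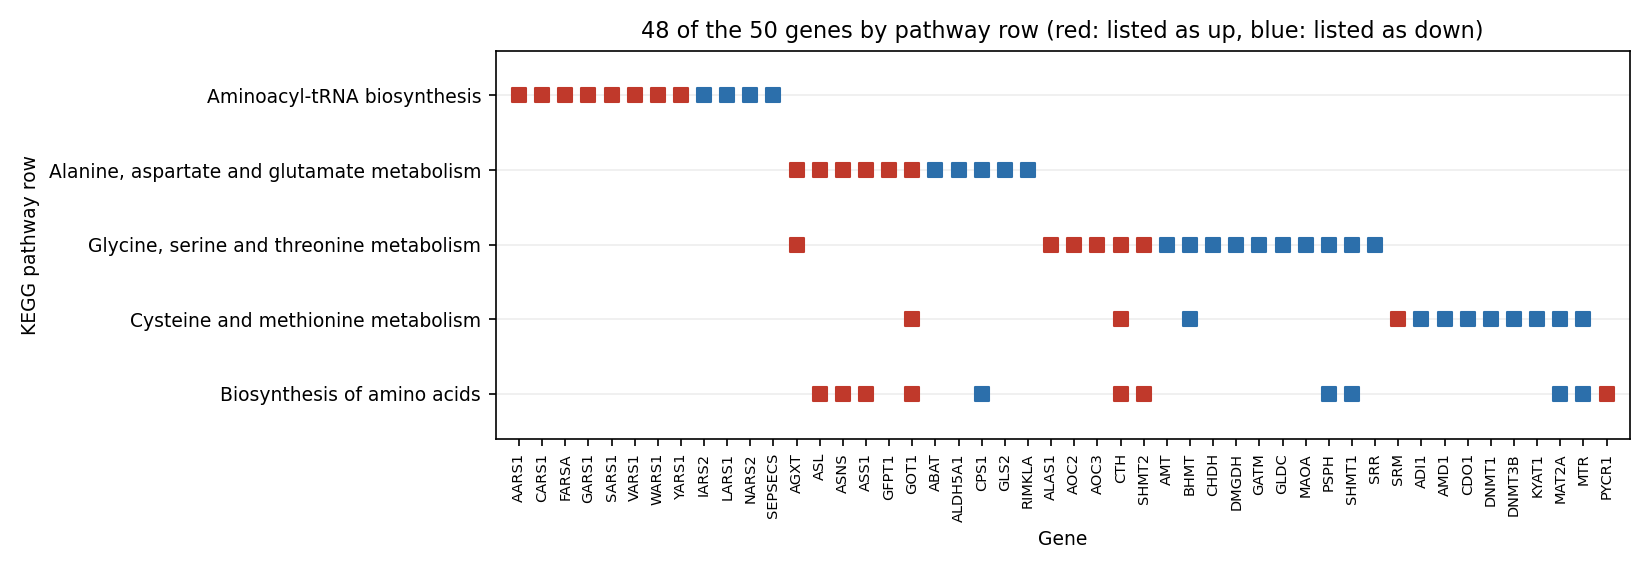
Each of 48 of the 50 genes (horizontal axis) against the 5 KEGG pathways used to choose them (vertical axis), with a square where the gene is listed (red, up; blue, down). Aminoacyl-tRNA biosynthesis shares no gene with the other 4 pathways, and GOT1 and CTH, both up, are the 2 genes under 3 of them.

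The 5 pathways gave different proportions. In the authors' deposited table Aminoacyl-tRNA biosynthesis had 8 genes up and 5 down of 62 background genes, with a rich factor (the share of a pathway's background genes that changed over that share in all pathways) of 0.832 and p = 1. These counts by pathway include the central carbon genes that were dropped from the 50. Glycine, serine and threonine metabolism had 6 up and 14 down of 40 in the authors' deposited table, with a rich factor of 1.98, p = 0.00362 and q = 0.0311, the smallest p of the 5. The authors' deposited table has Alanine, aspartate and glutamate metabolism with 6 up and 6 down of 35 (p = 0.225), Cysteine and methionine metabolism with 3 up and 11 down of 48 (p = 0.476), and Biosynthesis of amino acids with 10 up and 9 down of 77 (p = 1). These p-values take genes as units and come from a test whose kind the table does not name. The pathway that held the synthetases had 62 background genes, more than the lists of 21, 17 and 6 tRNA charging genes hold together. Its listed share is thus of another set than the 42.9% of the cytosolic list. In that pathway 21% of background genes were listed, near the 25.2% of all, and nothing is read from that difference. Of its changed genes 61.5% were up, beside 32.5% of all changed genes. Of the 50 genes, 37 were under 1 of the 5 pathways, 11 under 2 and 2 under 3. In the whole table a member was under a median of 3 pathways, from 1 to 13, and all 12 members under a single pathway were synthetases. The most widely annotated were MAOA (13 pathways, down), GOT1 (11, up), GLS2 (9, down), SHMT2 (7, up), SHMT1 and ABAT (7 each, down), AGXT (6, up) and CPS1 (6, down). The genes under 5 pathways were AOC2, AOC3, SRM, CTH and ASS1 (up) and AMT, MTR and KYAT1 (down). Those under 4 were GFPT1 and ASL (up) and PSPH and GLDC (down). Those under 3 were ALAS1, ASNS and PYCR1 (up) and GATM, MAT2A, BHMT, AMD1, DNMT1, DNMT3B, CDO1 and ALDH5A1 (down). The 6 under 2 pathways, SEPSECS, DMGDH, CHDH, SRR, ADI1 and RIMKLA, were all down, as were 67.5% of all changed genes. Nothing is read from so few.

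Taking out the central carbon genes removed 11 genes, 3 up and 8 down. Among those up were the enolase ENO2 and the transaldolase TALDO1. Down were the lactate dehydrogenases LDHA and LDHB, PGAM1, its near-identical copy PGAM4, ALDOC, PRPS2, ALDH7A1 and DLD, the shared lipoamide dehydrogenase that also works in the glycine cleavage system. The 5 central carbon pathways themselves held 43 changed genes, 14 up and 29 down (32.6% up).

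**Figure D4:**
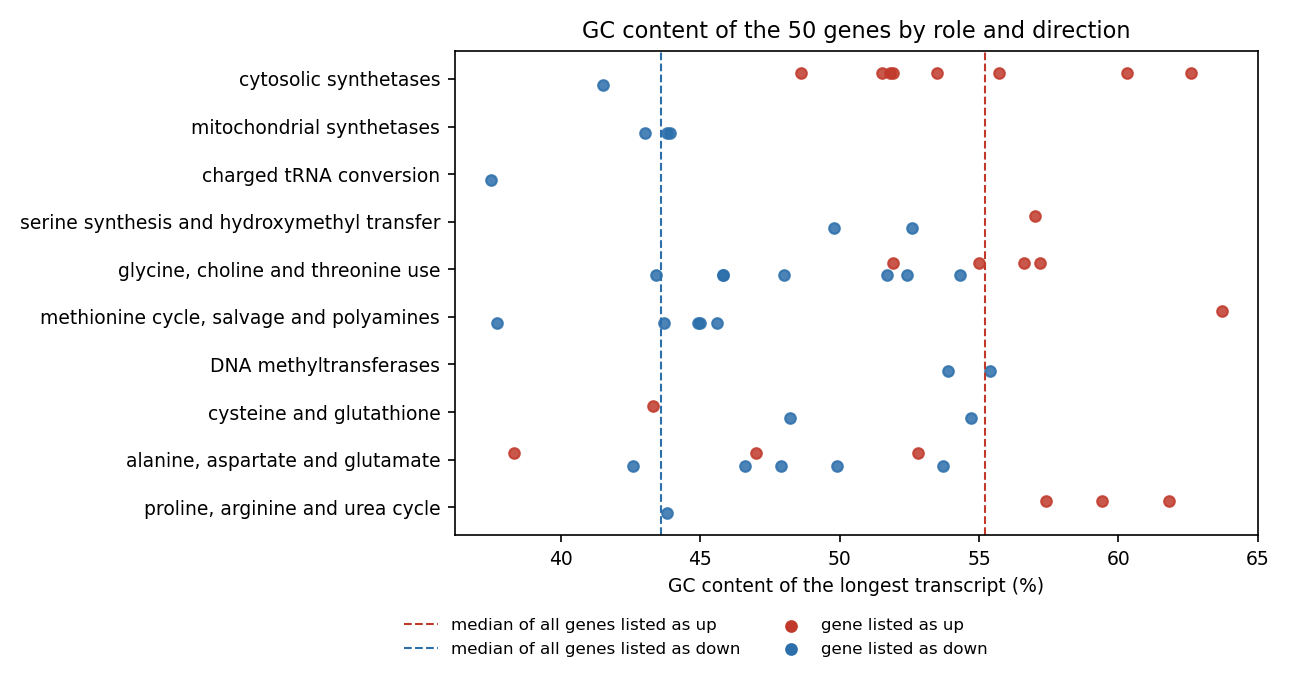
GC content of the longest transcript (horizontal axis, percent) of the 50 genes by role, 1 point per gene (red, up; blue, down), with dashed lines at the medians of all genes listed as up (55.2%) and down (43.6%). The synthetases separate by colour along the axis, and the alanine, aspartate and glutamate genes do not.

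Across all 50 genes the median GC content was 55.0% for the 21 listed as up and 45.8% for the 29 listed as down, beside 55.2 and 43.6% over all changed genes. Longest transcripts had a median of 2638 bases for members up and 3911 for members down, beside 2860 and 4401. When all changed genes were cut into 3 classes of like size at 43.1 and 53.1% GC, the members were 1 of 6 up in the lowest class, 8 of 27 in the middle (29.6%) and 12 of 17 in the highest (70.6%). All changed genes had 6.84, 33.0 and 57.8% up in the same classes. Among the synthetases and SEPSECS the counts were 0 of 3, 4 of 6 and 4 of 4, and among the enzymes 1 of 3, 4 of 21 (19.0%) and 8 of 13 (61.5%). The members that ran against this trend were GFPT1, up in the lowest class, and AMT, DNMT1, DNMT3B, GLS2 and KYAT1, down in the highest.

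Genes that sense and import amino acids were read beside the members. Of 23 genes of the integrated stress response, the pathway in which phosphorylation of the translation factor eIF2 raises ATF4, 15 were listed (65.2%, beside 25.2% of background genes), 12 up and 3 down (80.0% up, beside 32.5%). This list was chosen with earlier results known. GC content moved with direction here too, from 44.4 to 66.2% in the genes up and from 37.1 to 43.4% in those down. The medians over all changed genes were 55.2 and 43.6%. The part of GC content was not tested. Up were ATF4 itself, the kinase EIF2AK3, the eIF2B subunit EIF2B2, the transcription factors DDIT3 and CEBPB, the eIF2 phosphatase subunit PPP1R15A, the pseudokinase TRIB3, the stress inhibitors of mTORC1 SESN2 and DDIT4, the glutathione-degrading enzyme CHAC1, VEGFA and the member ASNS. Down were the kinase EIF2AK2 and the sestrins SESN1 and SESN3. ATF3 was not listed, and neither was EIF2AK4, the kinase that senses uncharged tRNA. Of 21 amino acid transporter genes 7 were listed (33.3%, beside 25.2% of background genes), 3 up and 4 down (42.9% up, beside 32.5%). Nothing about transport as a whole is read from these 7 entries. The shared heavy chain SLC3A2, the arginine importer SLC7A1 and the lysosomal exporter SLC36A1 were up. The leucine importer SLC7A5, which pairs with SLC3A2, was down, as were the glutamine importer SLC38A2, the glutamate importer SLC1A1 and SLC3A1. The cystine importer SLC7A11 was not listed. None of these entries carries a size, so the order of the genes by strength of change cannot be given.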

How the data were processed

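RNA came from 1 control culture and 1 culture with ezetimibe for 24 h. HISAT2 2.0.4 and StringTie 1.3.0 are named per the submitters' processing notes. Genome build, annotation, depth and the threshold for a changed gene: not given in the sources used here. Its name ties the deposited table to edgeR and to a KEGG enrichment by the authors. Per the file headers, the deposited table holds for 327 pathways the numbers and names of changed genes (other values are the numbers of background genes), the authors' rich factor, a ratio (fold) of shares, and the authors' p-value and q-value.

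Members were taken by the pathway rule, and directions were counted with no test, since 1 library per condition allows none. Members and lists (12 role lists, 3 context lists, 211 symbols, all matched to an Ensembl ID) were chosen with earlier results of these data known. Named, each with its direction and number of pathways, are the members and, with their direction, the listed genes of the context lists, except a few genes that are not reported here by name and are left out of the plots with gene names. GC content and length came from GENCODE release 29 transcripts for 2237 of 2238 genes, and the authors' annotation may differ. RefSeq promoter windows of 300 bases were matched by symbol; for 44 of the members' 57 windows all 50 bases after the start lay in a GENCODE transcript of the gene, and for 0 in reverse complement. The motif search was tested on simulated data. Python 3.11.15, NumPy 2.4.6, SciPy 1.17.1 and Matplotlib 3.10.9 were used.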

Additional observations from a re-analysis of the deposited data

How the results depend on the processing

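The share of members listed as up, 42.0%, ranged from 35.1 to 46.5% when each of the 5 pathways was left out in turn, lowest without Aminoacyl-tRNA biosynthesis, and was 39.3% with the 11 central carbon genes kept (24 up and 37 down). Leaving out genes under more than 20 pathways removes no member and gave 32.4% over all changed genes. With the mean GC content over all transcripts of a gene, members up had a median of 53.7% and members down 47.9%, and 62.5% of the highest class was up. The count of genes listed as up with the C/EBP-ATF element fell from 6 to 3 under the stricter spelling and to 2 on the gene's strand alone; it was 5 when the first listed window of each gene was used, a choice made after seeing the data. These 3 searches are subsets of the main one, so their count of 0 among genes listed as down was fixed by it. No paired analysis was possible because each condition has 1 library. With no value per gene or library, neither the size of a change nor its error can be given.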

Other observations

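The cytosolic synthetases were divided by the multisynthetase complex, a cytosolic assembly that holds 8 of the synthetases. The split was chosen after the directions were seen and has no test. Of its 8 synthetases, 1 was listed, LARS1, as down, and the other 7 were not listed. Beside the 25.2% of all background genes that were listed, nothing is read from 1 of 8. Of the other 13 cytosolic synthetase genes, 8 were listed and all 8 were up. Beside these stand 25.2% of background genes listed and 32.5% of all changed genes up. FARSB, HARS1, NARS1, TARS1 and TARS3 were not listed. The median GC content of the longest transcript was 43.4% in the complex (41.2 to 55.2%) and 51.5% outside it (41.6 to 62.6%), and the 5 unlisted genes outside it lay at 41.6 to 46.8%. MARS1 and QARS1, at 53.8 and 55.2%, were the 2 genes of the complex within the GC range of those listed as up. By structural class, class I had 4 up and 2 down of 19 cytosolic and mitochondrial enzymes, and class II had 4 up and 2 down of 19. The shares over all genes are the same 25.2% listed and 32.5% up, and nothing is read from these counts.

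The mitochondrial ribosomal proteins, the partners of the mitochondrial synthetases, were read for comparison after the directions were seen. In the Ribosome pathway 4 were listed, 2 up and 2 down, with a median GC content of 46.8%. The other 33 listed genes were 32 up and 1 down, with a median of 50.0%. Over all changed genes 32.5% were up. How many mitochondrial ribosomal proteins the background held was not counted, and nothing is read from 4 genes. The pathway Protein processing in endoplasmic reticulum, which holds no member of the 50, had 49 of 74 listed genes up (66.2%, beside 32.5% of all changed genes).

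Of the 6 changed genes under Arginine biosynthesis all 6 are members: ASS1, ASL and GOT1 were up, and 3 were down, CPS1 and GLS2 among them.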
